A study of Mus musculus with 24 samples.

Results

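The genes of mitochondrial fatty acid oxidation described here were Cpt1a, Cpt1b, Cpt2, Acadm, Acadl, Acadvl, Hadha, Hadh and Ppara, 9 of the 56895 genes and loci in the 8 deposited comparison tables. They were taken by symbol, and each of the 9 symbols had 1 entry in every table. Cpt1a stood apart from the others. Over both maternal groups of males, with reads recovered from the tables and scaled together, it rose under the high-fat diet and was called, as were 6.91% of 16925 genes. The other 8 genes had lower means there and none of them was called. In no comparison between single groups was Cpt1a called. Its call was lost with a brown or beige adipocyte marker level as a covariate and without the 6 libraries whose names hold the word renal. The highest value of 8 of the 9 genes was in 1 of 2 females of vitamin D-deficient mothers on the high-fat diet.

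RNA-seq was performed on retroperitoneal white adipose tissue of mice labelled C57BL/6J, with 3 mice in each of 8 groups. CTRL offspring were born to mothers given the AIN-93G diet with vitamin D3 at 1.0 IU/g, and VDD offspring to mothers given the same diet without it (0.0 IU/g), for at least 8 weeks before mating and through pregnancy. All mothers received the control diet from birth to weaning, so that the offspring themselves were not fed a deficient diet after birth. From 6 weeks of age, males and females of both kinds received a low-fat diet (LF, AIN-93M) or a high-fat diet (HF, 45% of energy from fat) for 8 weeks. The groups were therefore CTRL LF, CTRL HF, VDD LF and VDD HF in each sex, and all mice had been fasted overnight before the tissue was taken. No source used here ties a mouse to its litter, so mice of 1 group may share a mother, and p-values measure the spread between these mice.

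Long-chain fatty acids enter the mitochondrion as carnitine esters. Carnitine palmitoyltransferase 1 on the outer membrane, encoded by Cpt1a (the liver form, also found in many other tissues) or Cpt1b (the form of muscle, heart and brown adipocytes), makes the ester and is the step inhibited by malonyl-CoA, and Cpt2 on the inner membrane turns the ester back into acyl-CoA. The spiral then shortens the chain: the very long, long and medium-chain acyl-CoA dehydrogenases Acadvl, Acadl and Acadm take the first step, Hadha (the alpha subunit of the trifunctional protein) carries out later steps on long chains, and Hadh dehydrogenates short 3-hydroxyacyl-CoA. Ppara encodes PPAR-alpha, a fatty acid-activated nuclear receptor that is best known for driving these genes in liver during fasting. White adipocytes use the pathway little compared with brown adipocytes, in which it feeds heat production.

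The libraries held between 13346779 and 18484346 assigned reads, with a median of 15933506. White adipocyte markers were high throughout, with all 8 genes of that list at 10 or more normalized reads in each of the 24 libraries. Other tissues were also seen. The mean log2 level of 14 skeletal muscle genes ran from 2.98 to 15.8 and was more than 2 above the median in 10 libraries, 4 of them in VDD males. VDD LF female 2303 held all 10 kidney markers at 10 or more normalized reads, against at most 3 in any other library. The brown or beige adipocyte list (Ucp1, Cidea, Dio2, Elovl3, Cox8b, Cox7a1, Otop1 and Zic1) had a mean log2 level of 3.16 in the lowest and 9.74 in the highest library, and 6 of its 8 genes were detected in all libraries, with Elovl3 at 0 in 2 libraries and Zic1 at 0 in 12. In whole tissue, fewer cells of a type and less RNA per cell cannot be told apart.

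Of the 9 genes, 8 had an entry in the RefSeq promoter table (GRCm38.p6, the mm10 assembly), and Cpt1b had none there. The core hexamer AGGTCA, to which PPAR-alpha with its partner RXR and many other nuclear receptors bind, was searched on both strands of the 250 bases before each start. It was found in 3 of the 8 windows, against 14.02% of 32851 windows over all genes. These 3 windows are shown because the gene that was higher under the high-fat diet (Cpt1a) and 2 enzymes that were lower in the means of the same groups (Acadm and Acadvl) each hold 1 copy. They are printed 5′ to 3′ in the direction of the gene, with the hexamer or its complement TGACCT in capitals.
Cpt1a (chr19:3323051-3323300, plus strand): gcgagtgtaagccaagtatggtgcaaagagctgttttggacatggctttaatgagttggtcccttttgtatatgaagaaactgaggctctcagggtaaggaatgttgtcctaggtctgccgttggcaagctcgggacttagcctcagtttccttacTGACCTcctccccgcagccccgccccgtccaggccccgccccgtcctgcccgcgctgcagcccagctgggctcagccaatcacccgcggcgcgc
Acadm (chr3:153944644-153944893, minus strand): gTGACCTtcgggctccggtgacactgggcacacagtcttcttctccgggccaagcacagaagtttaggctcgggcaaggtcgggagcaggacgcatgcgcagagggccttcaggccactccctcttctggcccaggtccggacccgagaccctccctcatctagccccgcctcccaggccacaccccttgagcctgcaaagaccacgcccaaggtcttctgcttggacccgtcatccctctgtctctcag
Acadvl (chr11:70015429-70015678, minus strand): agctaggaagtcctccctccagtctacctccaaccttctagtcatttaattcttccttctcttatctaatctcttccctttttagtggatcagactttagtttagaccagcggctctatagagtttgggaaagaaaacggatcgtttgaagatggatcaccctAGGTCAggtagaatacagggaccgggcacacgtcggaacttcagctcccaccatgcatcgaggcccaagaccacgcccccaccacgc
The first base of the match lay 94 bases before the start in Cpt1a, 249 in Acadm and 87 in Acadvl. The direct repeat of the hexamer with any 1 base between its 2 copies was in none of the 8 windows and in 0.03% of all windows. The GC box GGGCGG was in 6 of the 8 (Cpt1a, Cpt2, Acadl, Hadha, Hadh and Ppara) and in 32.74% of all windows. A match describes letters and is no evidence of binding.

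Levels between genes were compared per kb of exon, as normalized reads per kb. Acadl had the highest median over the 24 libraries at 3289 per kb, followed by Acadm at 1871, Acadvl at 1776, Hadh at 1315, Cpt2 at 947 and Hadha at 529. Cpt1a stood at 135 per kb, Ppara at 34.2 and Cpt1b at 4.81. The enzymes inside the mitochondrion were thus the abundant transcripts, and both genes of the entry step and the receptor were lower. The level of Cpt1b is uncertain, because 81.4% of its exon bases are shared with Gm44502, which has 0 reads. The lowest and the highest library differed 3.27-fold for Cpt2, 3.51-fold for Hadh, 4.33-fold for Acadm, 4.51-fold for Hadha, 4.71-fold for Cpt1a, 5.98-fold for Acadl, 7.05-fold for Acadvl and 25.6-fold for Ppara. For 7 of the 9 genes the lowest library was a CTRL HF female and the highest was VDD HF female 2083. Cpt1a (lowest VDD LF male 2078, highest VDD HF male 2308) was the gene with neither. For Cpt2 the lowest was also a CTRL HF female, and the highest was VDD HF female 2121.

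**Figure D1:**
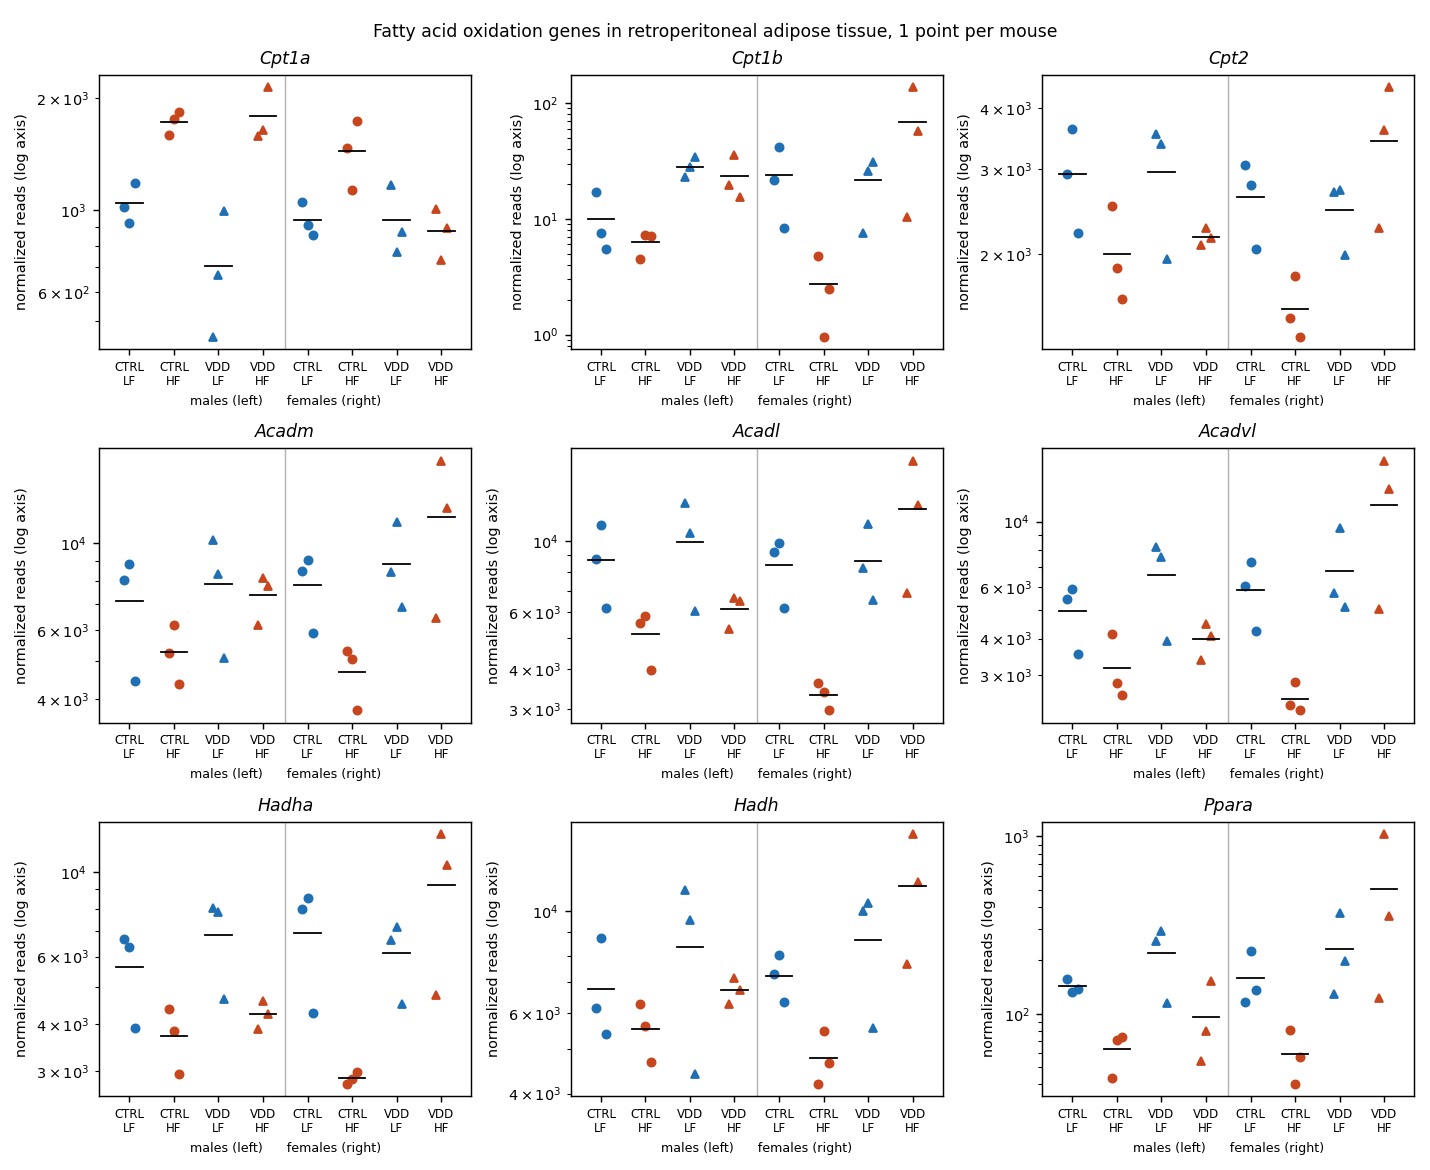
Normalized reads (log axis) of the 9 genes in 24 mice, with 4 groups of males on the left and 4 of females on the right of each panel. Circles are CTRL and triangles VDD offspring, blue is LF and red HF, and black lines are means of 3 mice. Cpt1a is higher in HF than in LF males, whereas Acadl, Hadha and Ppara are lower in CTRL HF females and spread upwards in VDD HF females.

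A gene was called when limma gave an adjusted p below 0.01 and a fold above 1.5 or below 0.66. None of the 9 was called in any of the 8 comparisons between groups of 3 mice, where between 0 and 12 of the 15438 to 16563 genes tested were called. The paper used DESeq2 with an adjusted p below 0.01 and a fold limit, and reported far more genes in each of these comparisons. A gene not called here may therefore have been called there. Calls made up 0.0578% of 15583 genes between diets in CTRL males, 0.0752% of 15965 between diets in VDD males, and 0% in each of the other 6 comparisons.

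By an adjusted p below 0.05 with no fold limit, the diets of CTRL females gave 5 of the 8 genes tested (7.4% of all genes), those of VDD males gave Cpt1a (5.35%) and those of CTRL males gave 0 (1.17%). By an unadjusted p below 0.05, 8 of 8 genes passed between the diets of CTRL females (28.8% of all genes) and 9 of 9 between CTRL HF and VDD HF females (16.7%). Between the diets of CTRL males 6 of 8 passed (18.8%), and between those of VDD males 3 of 9 did (25.9%). Between maternal diets, Cpt1b passed in LF males (6.79%), and Acadm and Cpt1b did in HF males (5.31%). On the HF diet Cpt1b was tested through the VDD libraries alone in both sexes, which favours such a difference. No gene passed between the diets of VDD females (5.05%) or between the maternal diets in LF females (12%).

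The groups did not overlap for Cpt1a (higher, 13% of all genes), Acadl and Ppara (lower, 11.7%) between the diets of CTRL males. In VDD males they did not for Cpt1a (higher, 17%) and Hadha (lower, 16.5%). Cpt1b was higher without overlap in VDD males on both diets (6.83% of all genes higher and 6.59% lower on LF, 5.04% and 5.25% on HF). On HF it passed the filter of 10 normalized reads only through VDD males. No gene was without overlap between the diets of VDD females (5.55% and 6.06%) or the maternal diets of LF females (8.48% and 9.74%). Comparisons that share a group are not independent of each other.

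**Figure D2:**
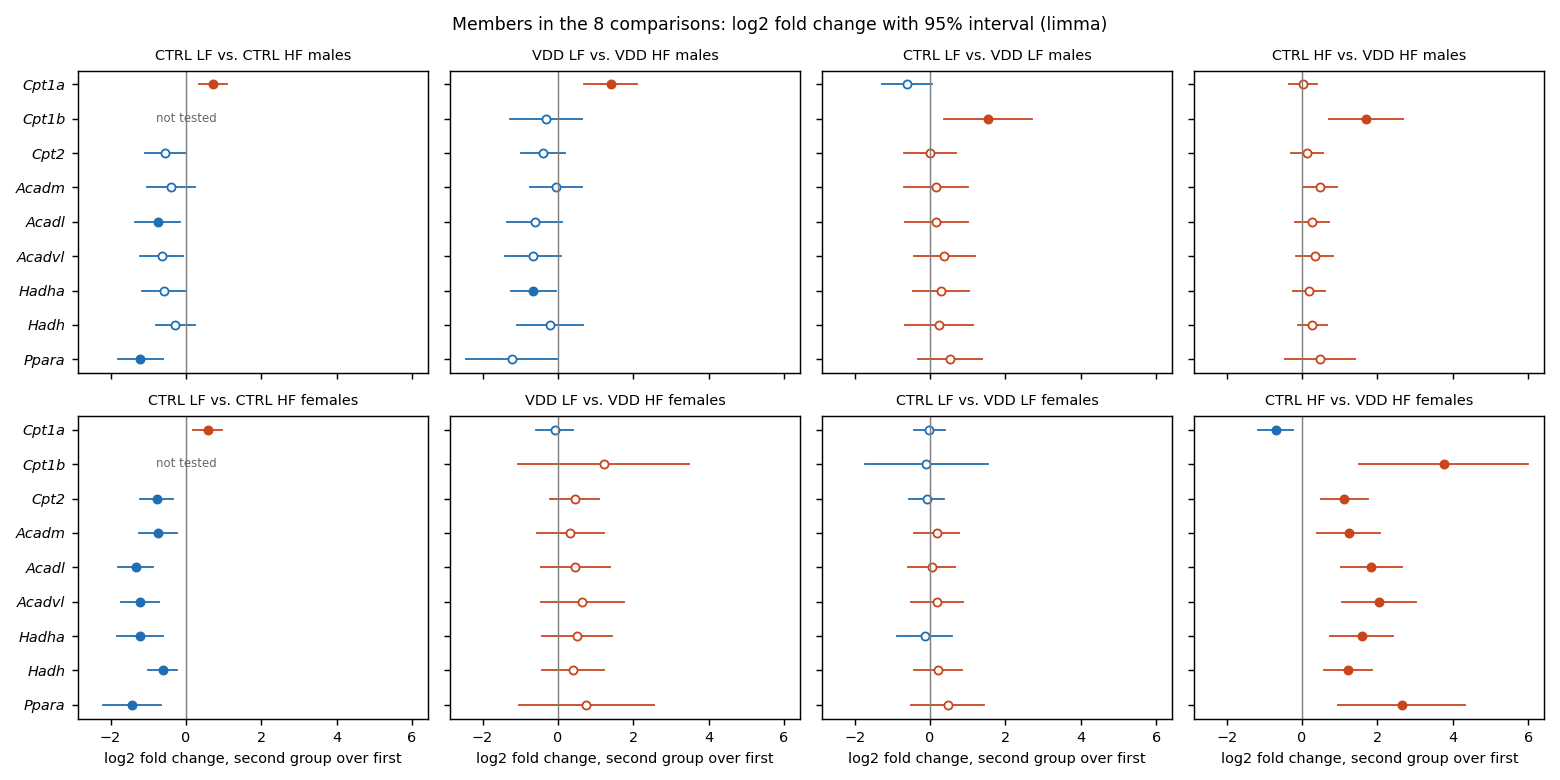
Log2 fold changes (second group over first) of the 9 genes in the 8 comparisons, with 95% intervals from limma. Red is higher and blue lower in the second group, and filled circles are genes whose 3 values in one group did not overlap those in the other. All 9 circles are filled in CTRL HF vs. VDD HF females, with Cpt1a on the other side of 0 from the rest, and none is filled in VDD LF vs. VDD HF females. In CTRL HF vs. VDD HF of both sexes, Cpt1b was tested only through the VDD HF libraries.

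Cpt1a, the entry step, was higher on the high-fat diet in males of both maternal groups. Its normalized reads were 923, 1019.6 and 1182 in CTRL LF and 1592, 1752 and 1829.8 in CTRL HF males. In VDD males they were 455, 668 and 989.9 on the LF and 1585, 1637 and 2142 on the HF diet. All 6 HF males were above all 6 LF males. Over both maternal groups, the log2 fold change of HF over LF males was 1.07 (SE 0.17, adjusted p = 0.00223), so that Cpt1a rose and was the 1 gene of the 9 called in this contrast (6.91% of 16925 genes were called). The call was lost with the brown or beige marker level as a covariate (0.90, adjusted p = 0.0139) and without the 6 libraries whose names hold the word renal (1.07, adjusted p = 0.089, 4 LF and 4 HF males), and was kept without any single male (0.93 to 1.21). The count of the 9 genes called was 5 without VDD LF male 2310 and 2 without VDD HF male 2308. The share of all genes called without these mice is not given here, so the counts do not show a change particular to the 9. Within each maternal group the log2 fold change was 0.72 (SE 0.17, adjusted p = 0.0759) in CTRL and 1.40 (SE 0.29, adjusted p = 0.049) in VDD males, and the interaction of the maternal and offspring diets in males was 0.67 (SE 0.34, adjusted p = 1).

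The mean log2 level of 8 macrophage markers was also higher on the HF diet in these males. It was 9.74 to 10.4 in CTRL LF and 10.4 to 10.9 in CTRL HF males, with overlap, and 8.97 to 9.79 in VDD LF and 9.95 to 11.2 in VDD HF males, without. In females it was 8.64 to 9.40 in CTRL LF, 9.81 to 9.84 in CTRL HF and 8.30 to 9.30 in VDD LF, and in VDD HF it was 10.7 in female 2081 and 8.77 and 8.89 in the other 2. All 8 markers were at 10 or more normalized reads in 23 of 24 libraries, and 7 of 8 in VDD LF male 2310. Their part in the Cpt1a result was not tested.

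In females the means of Cpt1a on the HF diet differed with the mother's diet. Normalized reads were 855, 912 and 1048 in CTRL LF and 1132, 1467 and 1730.0 in CTRL HF females, without overlap, and the log2 fold change was 0.58 (SE 0.17, adjusted p = 0.0728). In VDD females they were 768, 870.2 and 1169 on the LF and 733, 892 and 1004 on the HF diet, with a log2 fold change of -0.08 (SE 0.21, adjusted p = 0.96) and a 95% interval of -0.58 to 0.41. All 3 VDD HF females thus stood below all 3 CTRL HF females (-0.70, SE 0.20, adjusted p = 0.184). The interaction in females was -0.69 (SE 0.28, adjusted p = 0.635), and the diet response of females minus that of males was -0.81 (SE 0.23, adjusted p = 0.282), so that neither difference passed the adjusted limit although both had an unadjusted p below 0.05 (0.0309 and 0.00211). Between VDD LF and CTRL LF no difference beyond the spread was found in females (-0.02, SE 0.18, adjusted p = 0.968) or in males (-0.62, SE 0.28, adjusted p = 0.74).

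Cpt1b, the muscle and brown adipocyte form of the same enzyme, was near the detection floor. Its exons are shared by 81.4% (2744 of 3372 bases) and on the same strand with Gm44502, which has 0 reads in all libraries, and its counts are therefore uncertain. It reached 10 normalized reads in 14 of 24 libraries and was too low to be tested in CTRL LF vs. CTRL HF of either sex. In males, normalized reads were 5.46, 7.48 and 16.9 in CTRL LF, 4.48, 7.15 and 7.25 in CTRL HF, 23.1, 27.7 and 33.9 in VDD LF and 15.6, 19.6 and 35.6 in VDD HF. VDD males were above CTRL males on the LF diet (1.54, SE 0.49, adjusted p = 0.671) and on the HF diet (1.69, SE 0.42, adjusted p = 0.94), without overlap in either. Among CTRL males only the LF value of 16.9 reached 10. Cpt1b thus passed the filter through VDD males, which favours a difference in this direction. Over both diets the log2 difference was 1.62 (SE 0.32, adjusted p = 0.377), and Cpt1b ranked 12 of 16925 by unadjusted p (0.000346) without being called, where 0 genes were called and 9.2% had an unadjusted p below 0.05. The skeletal muscle level of these males moved in the same direction. Its mean log2 was above 10 in 1 of 6 CTRL and 4 of 6 VDD males. Over the 12 males the correlation of Cpt1b with it was r = 0.714. With the muscle level as a covariate the difference was 1.25 (adjusted p = 0.558). The muscle level moved with the maternal group, so this fit cannot tell muscle RNA and maternal diet apart.

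Female Cpt1b values were 8.34, 21.6 and 41.8 in CTRL LF, 0.96, 2.49 and 4.79 in CTRL HF, 7.52, 25.8 and 31.1 in VDD LF and 10.3, 57.6 and 137 in VDD HF. CTRL HF females had the lowest 3 values of the females and 1 to 7 reads each, so that the log2 fold change to VDD HF of 3.76 (SE 0.95, adjusted p = 0.165) depends on the offset of 1 read, and with an offset of 10 it was 2.27. None of these 3 values reached 10, so Cpt1b was tested in that comparison only through VDD HF.

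Cpt2, the inner membrane transferase, followed the dehydrogenases and not Cpt1a. In males it read 2216, 2933 and 3632 in CTRL LF, 1616, 1878 and 2519 in CTRL HF, 1955, 3385 and 3534 in VDD LF and 2088, 2159.7 and 2264 in VDD HF, with overlap between diets in both maternal groups. In females it read 2057, 2780.0 and 3052 in CTRL LF, 1353, 1479.5 and 1805 in CTRL HF, 1993, 2694 and 2710.5 in VDD LF and 2263, 3602 and 4425 in VDD HF. CTRL HF females were below CTRL LF females (-0.78, SE 0.18, adjusted p = 0.0477) and below VDD HF females (1.12, SE 0.27, adjusted p = 0.16), without overlap. Over both maternal groups of males the HF over LF log2 fold change was -0.47 (SE 0.18, adjusted p = 0.087).

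Because Cpt1a and Cpt2 moved apart, their reads were also compared within each library, a ratio that no scaling between libraries can change. Cpt1a had 0.378 ± 0.142 reads per Cpt2 read in CTRL LF, 0.899 ± 0.252 in CTRL HF, 0.277 ± 0.201 in VDD LF and 0.825 ± 0.146 in VDD HF males (SD, n = 3 each). In females the ratio was 0.362 ± 0.0468 in CTRL LF, 0.966 ± 0.327 in CTRL HF, 0.385 ± 0.0877 in VDD LF and 0.283 ± 0.139 in VDD HF. The 9 HF libraries of males and CTRL females were all at 0.627 or above, and the other 15 libraries were all at 0.533 or below. These values describe the same libraries as the fold changes above and add no independent evidence.

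**Figure D3:**
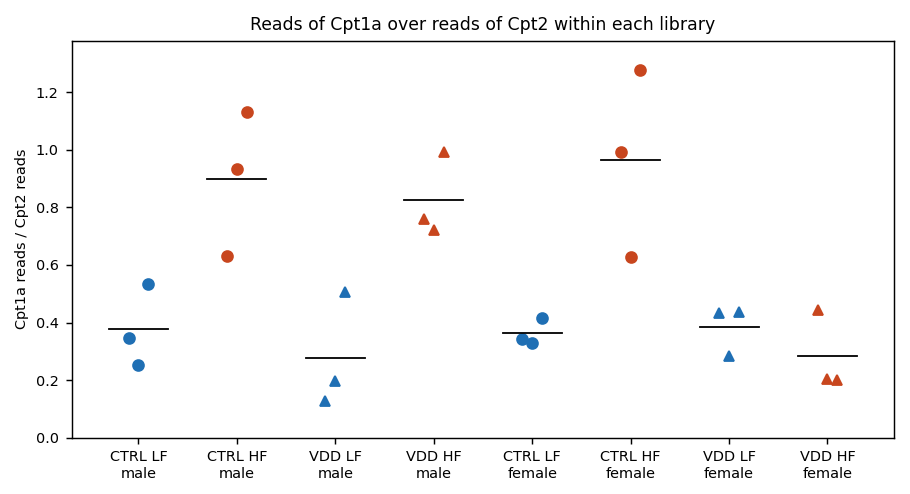
Reads of Cpt1a divided by reads of Cpt2 in each of 24 libraries, with means of 3 mice as lines. HF libraries of CTRL males, VDD males and CTRL females lie between 0.627 and 1.28, and VDD HF females lie between 0.201 and 0.444, beside the LF groups.

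Acadvl, which takes the longest chains, read 3547, 5448 and 5905 in CTRL LF, 2572, 2835 and 4154 in CTRL HF, 3932, 7576 and 8174 in VDD LF and 3399, 4079.7 and 4484 in VDD HF males. In females it read 4244, 6048 and 7306 in CTRL LF, 2284, 2376 and 2852 in CTRL HF, 5108, 5710.4 and 9497 in VDD LF and 5054, 12934 and 16113 in VDD HF. CTRL HF females were below every other female. The log2 fold change was -1.22 (SE 0.21, adjusted p = 0.0294) from CTRL LF to CTRL HF females and 2.04 (SE 0.42, adjusted p = 0.142) from CTRL HF to VDD HF females. In males the HF over LF contrast was -0.65 (SE 0.21, adjusted p = 0.0515). Of its exon bases 42.9% lie opposite Dvl2, which had 151 to 389 reads per library, and the library kit marks strand.

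Acadl, the long-chain dehydrogenase and the most abundant of the set per kb, gave the same order. Male values were 6170.2, 8772 and 11196 in CTRL LF and 3959, 5563 and 5852 in CTRL HF, without overlap (-0.75, SE 0.27, adjusted p = 0.182). They were 6059.7, 10585 and 13089.7 in VDD LF and 5332, 6489 and 6645 in VDD HF males, with overlap through VDD LF male 2310 (-0.62, SE 0.31, adjusted p = 0.259). Female values were 6165, 9228 and 9866 in CTRL LF, 2969.5, 3378 and 3619 in CTRL HF, 6545, 8222 and 11277 in VDD LF and 6883, 12961 and 17761 in VDD HF. The log2 fold change from CTRL LF to CTRL HF females was -1.34 (SE 0.20, adjusted p = 0.0219), the smallest adjusted p of the 9 genes there. From CTRL HF to VDD HF females it was 1.83 (SE 0.34, adjusted p = 0.131), and over both maternal groups of males HF over LF was -0.68 (SE 0.21, adjusted p = 0.0415).

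Acadm, the medium-chain dehydrogenase, had the smallest HF over LF contrast of the 3 dehydrogenases in males. It read 4461, 8061 and 8857 in CTRL LF, 4382, 5247 and 6182 in CTRL HF, 5106, 8352 and 10159.7 in VDD LF and 6165, 7788 and 8156 in VDD HF males, and HF over LF was -0.22 (SE 0.21, adjusted p = 0.514), with an interval of -0.69 to 0.25. Females read 5907, 8504 and 9068 in CTRL LF, 3748, 5049.6 and 5309 in CTRL HF, 6856, 8419 and 11296 in VDD LF and 6452, 12279.8 and 16230.5 in VDD HF. CTRL HF females stood below CTRL LF (-0.75, SE 0.22, adjusted p = 0.0749) and VDD HF females (1.24, SE 0.35, adjusted p = 0.189).

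Hadha is the alpha subunit of the trifunctional protein. Females read 4267, 7979 and 8535 in CTRL LF, 2784, 2861 and 2998 in CTRL HF, 4514, 6652 and 7189 in VDD LF and 4752, 10419.6 and 12567 in VDD HF. The log2 fold change was -1.22 (SE 0.26, adjusted p = 0.0378) from CTRL LF to CTRL HF and 1.58 (SE 0.35, adjusted p = 0.151) from CTRL HF to VDD HF females. Males read 3891, 6343 and 6689.5 in CTRL LF, 2964, 3838 and 4364 in CTRL HF, 4643, 7873 and 8024 in VDD LF and 3873, 4232 and 4589 in VDD HF, and VDD HF males were below VDD LF males without overlap (-0.65, SE 0.25, adjusted p = 0.162). Over both maternal groups of males it was -0.62 (SE 0.19, adjusted p = 0.0374). The gene of the beta subunit, Hadhb, starts 85 bases from Hadha on the other strand, and was the gene outside the set whose log2 values were most like the mean of the 6 enzymes (r = 0.981 over 24 libraries, of 16934 genes searched).

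Hadh, which acts on short 3-hydroxyacyl chains, overlapped between diets in males. It read 5407, 6137 and 8726 in CTRL LF, 4679.8, 5628 and 6261 in CTRL HF, 4417, 9552 and 11137 in VDD LF and 6260.5, 6746 and 7149 in VDD HF, with HF over LF at -0.24 (SE 0.22, adjusted p = 0.474). Females read 6342, 7307 and 8035 in CTRL LF, 4200.3, 4667 and 5488 in CTRL HF, 5571, 9993 and 10414 in VDD LF and 7676, 11557 and 14733 in VDD HF. The differences from CTRL LF to CTRL HF (-0.62, SE 0.16, adjusted p = 0.0613) and from CTRL HF to VDD HF (1.21, SE 0.27, adjusted p = 0.151) had the same signs as for the other enzymes. Dlst, a subunit of the 2-oxoglutarate dehydrogenase of the citric acid cycle, and Gm13910 came next to Hadhb in likeness to the 6 enzymes (r = 0.962 and 0.960), as a description.

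Ppara, the receptor, had lower means on the HF diet in males and in CTRL females. Males read 133, 138 and 158 in CTRL LF and 43.7, 71.5 and 74.2 in CTRL HF, without overlap (-1.21, SE 0.27, adjusted p = 0.0658). In VDD males it read 115, 256 and 292 on the LF and 54.2, 79.8 and 152 on the HF diet, where VDD HF male 2308 stood above VDD LF male 2310 (-1.22, SE 0.50, adjusted p = 0.191). Over both maternal groups of males the log2 fold change was -1.21 (SE 0.29, adjusted p = 0.0149), short of the limit of 0.01. Females read 117, 136 and 227 in CTRL LF, 40.2, 57.2 and 80.7 in CTRL HF, 129, 198 and 372 in VDD LF and 123, 357 and 1030.5 in VDD HF. The difference was -1.43 (SE 0.33, adjusted p = 0.0444) from CTRL LF to CTRL HF and 2.64 (SE 0.72, adjusted p = 0.176) from CTRL HF to VDD HF females, the latter resting on a group that spanned 123 to 1031 normalized reads. The genes most like Ppara over the 24 libraries were Ahcyl1 (r = 0.935), Afg3l2 (r = 0.899) and Ppargc1b (r = 0.891), a coactivator of the PPAR receptors.

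Over both maternal groups of males, 8 of the 9 genes had lower means under HF with Cpt1a the exception, and their median log2 fold change was -0.47 against -0.003 over all 16925 genes. By an adjusted p below 0.05 without a fold limit, 4 of 9 were past the limit (Cpt1a higher, Acadl, Hadha and Ppara lower), where 20.8% of all genes were. By unadjusted p below 0.05 it was 6 of 9, against 34.9% of all genes. Between CTRL LF and CTRL HF females the median of the 8 genes tested was -1.001 against 0.012 over all 16563. The 7 lower genes were lower without overlap, as were 18.2% of all genes, and Cpt1a was higher without overlap, as were 16.9%. Acadl, Acadvl, Cpt2, Hadha and Ppara had adjusted p-values of 0.0219, 0.0294, 0.0477, 0.0378 and 0.0444, below 0.05 but not below 0.01, and were not called.

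In VDD females no gene differed between the diets beyond the spread. The median log2 fold change of VDD LF vs. VDD HF females was 0.463 over the 9 genes and -0.007 over all 15923, with 8 higher, 1 lower and all 9 overlapping. The smallest unadjusted p was 0.151, for Cpt2 (0.44, interval -0.20 to 1.08). The values within VDD HF were spread widely, and females 2083 and 2121 stood above the third VDD HF female, 2081, in each of the other 8 genes and below it in Cpt1a. Acadvl (0.64) had the interval -0.46 to 1.75 and Ppara (0.75) -1.03 to 2.53. Over both maternal groups of females, HF over LF had a median of -0.279 with 0 of 9 genes at an unadjusted p below 0.05 (21.2% of all genes).

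Between CTRL HF and VDD HF females all 9 genes differed without overlap, 8 higher and Cpt1a lower in VDD HF, where 11.1% of 16480 genes were higher and 11.8% lower without overlap. Among the 8, Cpt1b was tested here only through the VDD HF libraries, which favours its being higher. The median log2 fold change was 1.58 over the 9 genes and 0.001 over all. The 9 adjusted p-values lay between 0.131 and 0.189, and 0 genes of all 16480 had one below 0.05. In a single fit over all 24 libraries, in which the groups share 1 estimate of the spread, 0 of the 9 were called. Adjusted p-values of limma below 0.05 there were those of Acadl and Acadvl (0.0224 each), Cpt1b (0.026), Hadha and Ppara (0.0312 each) and Cpt2 (0.0399). The share of all genes below 0.05 in this fit is not given here, so these genes are not set against it. Each of them spread more in VDD HF than in CTRL HF females, Acadvl with a coefficient of variation of 50.1% against 12.2%. Leaving out both VDD HF females 2083 and 2121, which leaves 1 mouse in that group, moved Acadl from 1.83 to 1.06 and Cpt1a from -0.70 to -0.49.

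The maternal by offspring diet interaction asks whether the HF response differed between VDD and CTRL offspring. In females it was positive for 8 genes and negative for Cpt1a, with a median of 1.71 against -0.016 over all 17430 genes. All 9 had an unadjusted p below 0.05, as had 7.76% of all genes, and the adjusted p-values were 0.601 or above, so that none was called. In males the median was 0.121 against 0.029 over all genes, 6 were positive and 3 negative, and no gene had an unadjusted p below 0.05 (3.86% of all genes). Over both offspring diets, VDD females were above CTRL females in 8 genes and below in Cpt1a, with a median of 0.712, and the smallest adjusted p-values were 0.0655 for Acadl (0.93) and for Acadvl (1.11). All 9 had an unadjusted p below 0.05 there, against 23.6% of all genes. In males 1 of 9 did, Cpt1b, against 9.2% of all genes, and by an adjusted p below 0.05 it was 0 of 9 (0.00591% of all genes).

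Between the sexes, over all 4 diet groups, 0 of 9 genes were called and 7.27% of 18399 genes were. Cpt1a was lower in females (-0.25, SE 0.11, adjusted p = 0.134) and was the 1 gene with an unadjusted p below 0.05 (33% of all genes). The others ranged from -0.03 for Cpt2 to 0.52 for Ppara.

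Markers of brown or beige adipocytes moved with 8 of the 9 genes and against Cpt1a. The mean log2 level of the list was between 3.16 and 5.34 in the 3 CTRL HF females and between 6.60 and 9.74 in the 3 VDD HF females, without overlap. In CTRL LF females it was between 5.63 and 8.16, also above all CTRL HF females, and in VDD LF females between 5.53 and 7.77. In males it was 4.02 to 6.68 in CTRL LF, 3.64 to 4.68 in CTRL HF, 5.09 to 7.72 in VDD LF and 4.35 to 6.78 in VDD HF. Ucp1, the uncoupling protein that defines these cells, ran from 0.83 normalized reads in CTRL HF female 2292 to 25479 in VDD HF female 2121, and Cidea, a lipid droplet protein of the same cells, from 18.2 in CTRL HF female 2292 to 10362 in VDD HF female 2083. Adipoq, the adipocyte hormone adiponectin, stayed within 44740 to 109716 in the same 24 libraries.

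Across the 24 libraries, 18 correlations were computed, each of the 9 genes with the brown or beige and with the skeletal muscle level. With the brown or beige level, Acadvl gave r = 0.914 (Spearman's rho = 0.907), Acadm r = 0.895 (rho = 0.883) and Cpt1a r = -0.641 (rho = -0.685). The permutation p-values were 1e-05, the smallest that 100000 resamples can give, for Acadvl and Acadm (adjusted 3e-05 for r, 2.57e-05 for rho), and for Cpt1a 0.00081 for r and 0.00033 for rho (adjusted 0.00162 and 0.00066). The other 6 genes had r from 0.776 (Hadh) to 0.879 (Hadha), with adjusted permutation p-values of at most 4.5e-05 for r and 6.75e-05 for rho. The resamples shuffled all 24 libraries without regard to the 8 groups. These p-values therefore also take in the differences between groups described above. Without the 2 libraries farthest from the median level, r was 0.867 for Acadvl, 0.848 for Acadm and -0.63 for Cpt1a, and at least 0.668 for the other 6. Within the 12 males it was 0.892 for Acadvl, 0.855 for Acadm and -0.624 for Cpt1a, and within the 12 females 0.922, 0.916 and -0.768. With the 8 group means removed it was 0.816 for Acadvl, 0.82 for Acadm and -0.469 for Cpt1a, and from 0.531 to 0.78 for the other 6, and no p-value was computed for these.

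With the skeletal muscle level, r lay between -0.128 (Cpt2) and 0.205 (Cpt1b), rho between -0.359 (Acadl) and 0.27 (Cpt1a), and the smallest adjusted permutation p was 0.602 for r and 0.1475 for rho. Without the 2 farthest libraries r lay between -0.059 (Cpt2) and 0.098 (Cpt1a). Within the 12 males Cpt1b gave r = 0.714 with the muscle level, and within the 12 females -0.093.

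**Figure D4:**
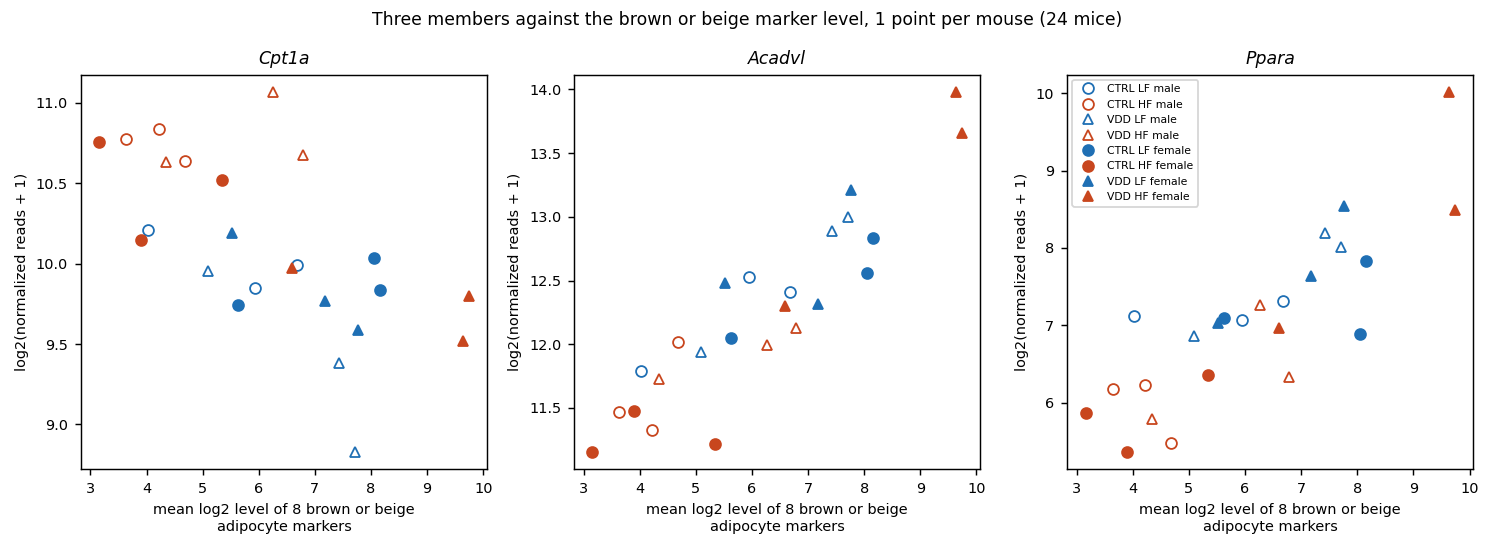
Log2 level of Cpt1a, Acadvl and Ppara against the mean log2 level of 8 brown or beige adipocyte markers in 24 mice. Open symbols are males and filled symbols females, circles are CTRL and triangles VDD, blue is LF and red HF. Acadvl climbs with the marker level (r = 0.914) and Cpt1a declines (r = -0.641), with VDD HF females 2083 and 2121 at the right edge.

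With that marker level as a covariate, the CTRL HF to VDD HF difference in females was 0.49 for Acadl (adjusted p = 0.786), -0.20 for Acadm, -0.09 for Ppara, 0.07 for Cpt1b and -0.30 for Cpt1a. The marker level did not overlap between these groups, so the groups and the marker level cannot be told apart. The adrenal list, which can come from tissue beside this depot, had Cyp11a1 at 3793 normalized reads in CTRL HF female 2290, 12775 in CTRL HF female 2292 and 10479 in VDD HF female 2121, and at most 38.6 in the other 3 of these females. Cyp11a1 was thus high in 2 of 3 CTRL HF and 1 of 3 VDD HF females. The mean log2 level of the 10 adrenal genes was 4.778, 5.508 and 4.685 in them and 2.275 to 2.796 in the others. Of the 10, 4, 5 and 4 reached 10 normalized reads in them, against 3 or 4 in the others. The 10 genes summed to 10402, 33106 and 19172 normalized reads in them and to 445 to 1130 in the others. The high sums thus lay in few genes of the list, and their tissue of origin was not tested. The part of these markers in the differences was not tested further.

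The wider list held 68 other genes of fatty acid activation, transport, oxidation and its control. In HF over LF males, 11 of the 64 tested fell, 0 rose and the median was -0.361, where 6.91% of all genes were called in either direction. Acacb, the mitochondrial acetyl-CoA carboxylase that makes the malonyl-CoA inhibiting Cpt1, fell, at -1.57 (SE 0.18, adjusted p = 0.000377). Its opponent Mlycd, which degrades malonyl-CoA, also fell, at -0.90 (SE 0.19, adjusted p = 0.00763). In transport and activation, the acyl-CoA synthetase Acsl1 (-1.33), the fatty acid transporter Slc27a1 (-1.09) and the carnitine acetyltransferase Crat (-0.96) fell.

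In the spiral, Hsd17b10, a short-chain 3-hydroxyacyl-CoA dehydrogenase, was at -1.50 (SE 0.20, adjusted p = 0.00095) and Acot2, a mitochondrial acyl-CoA thioesterase, at -1.14 (SE 0.17, adjusted p = 0.00167). Of the regulators, Ppargc1b (-1.80), Ppargc1a (-1.60) and Pparg (-0.71) fell, the first pair coactivators of mitochondrial genes and the last the adipocyte PPAR. Pdk4, a PPAR target that restrains pyruvate oxidation, was at -1.24 (SE 0.27, adjusted p = 0.00964). No gene of the peroxisomal (12 tested), unsaturated acid (4) or electron transfer (3) groups was called there, and the peroxisomal median was 0.098.

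In females the wider list had 0 calls, and most of its genes had lower means on the HF diet in CTRL mice. CTRL LF vs. CTRL HF females had 53 of 63 genes lower, a median of -0.496 and 18 genes lower with an adjusted p below 0.05 (7.4% of all genes in either direction), led by Acacb (-3.11, SE 0.30, adjusted p = 0.0136) and Pdk4 (-2.70, SE 0.33, adjusted p = 0.0176). Acacb averaged 8853 ± 1399 normalized reads in CTRL LF and 1098 ± 444 in CTRL HF females (SD, n = 3). VDD LF vs. VDD HF females had 30 higher and 33 lower with a median of -0.017, and the 2 smallest p belonged to Acsl5 (0.68, SE 0.19, adjusted p = 0.837) and Acad10 (0.43, SE 0.15, adjusted p = 0.837). CTRL HF vs. VDD HF females had 54 of 64 higher with a median of 0.776, the 2 smallest p being those of Mlycd (1.03, SE 0.17, adjusted p = 0.131) and Eci1 (1.24, SE 0.21, adjusted p = 0.131), an isomerase for unsaturated chains. All 11 spiral genes, all 4 of unsaturated acids and all 3 of electron transfer had higher means in VDD HF females there.

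**Figure D5:**
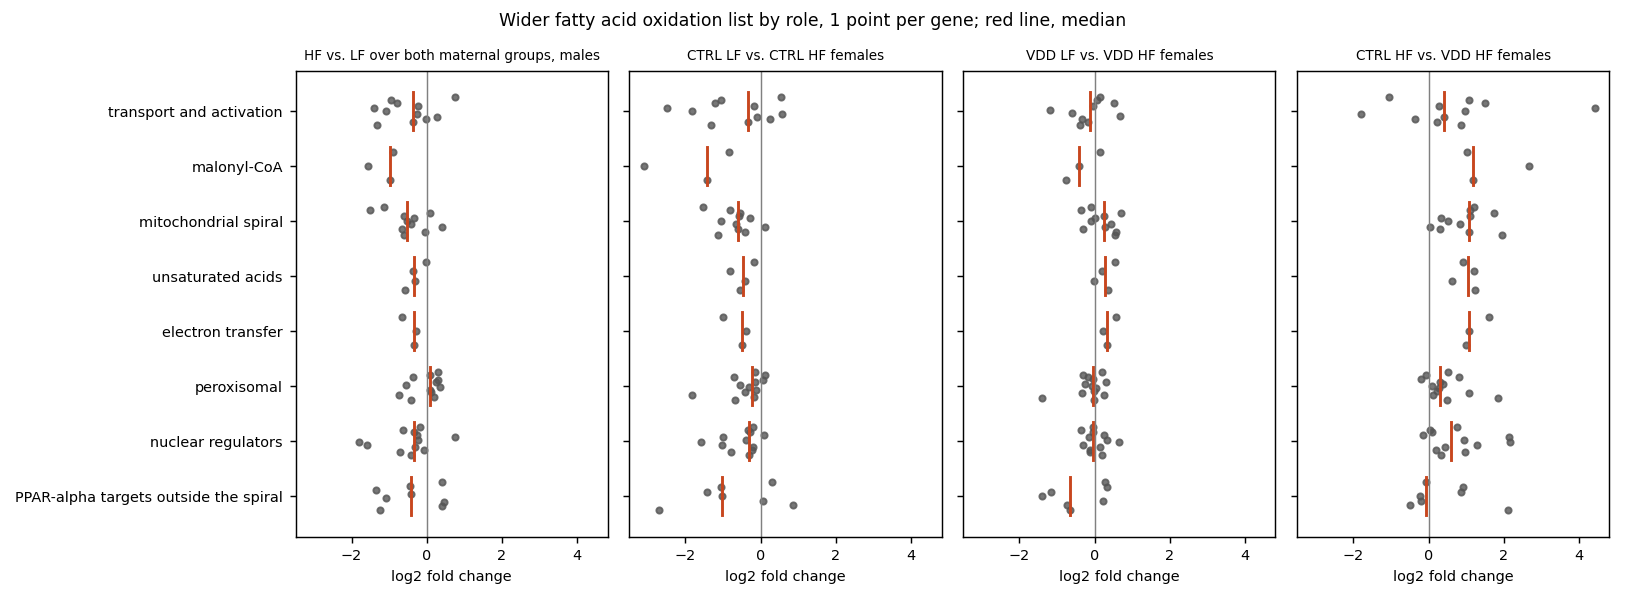
Log2 fold changes of the wider list by role in 4 comparisons, 1 point per gene tested, with the median of each role as a red line. The malonyl-CoA genes have medians of -0.983 in HF over LF males and -1.44 between the diets of CTRL females, and 1.18 between CTRL HF and VDD HF females.

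In the remaining comparisons of the maternal diet in males, the wider list had 0 calls. CTRL LF vs. VDD LF males had a median of 0.091, with the smallest p for Esrra (0.71, SE 0.14, adjusted p = 0.575), an orphan receptor of mitochondrial genes, and Vnn1 (-1.36, SE 0.32, adjusted p = 0.6). CTRL HF vs. VDD HF males had a median of 0.015, with Esrrg (2.07, SE 0.31, adjusted p = 0.797), a relative of Esrra, and Pdk4 (1.24, SE 0.24, adjusted p = 0.94) first. Over both diets, Esrra was at 0.59 (SE 0.12, adjusted p = 0.377) and Ppargc1a at 1.58 (SE 0.35, adjusted p = 0.377). Between the maternal diets in LF females, Sirt3, a mitochondrial deacetylase, was at 0.58 (SE 0.16, adjusted p = 0.391).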

How the data were processed

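Libraries of 24 mice (TruSeq Stranded mRNA, NextSeq 500, paired-end) had been trimmed by the authors with Sickle, aligned to mm10 with STAR 2.7.0d keeping uniquely placed reads, extended with Cufflinks 2.2.1 loci and counted with featureCounts 1.6.1 (versions from the submitters' processing notes). Unique alignment and the handling of shared exons may lower genes such as Cpt1b. The deposited values are log2(normalized reads + 1) for 6 libraries in each of 8 tables. The authors' DESeq2 fold changes and p-values in these tables were not used. Columns name the group and the mouse but no replicate number.

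Dividing out the size factor gave whole reads for 100% of values (within 0.02), which were scaled together over 24 libraries by the median of ratios. Printed levels are on that scale. Fold changes of the 8 comparisons come from each table's own scaling, and those over maternal groups, interactions and sexes from the joint scaling (12 libraries per sex, 24 for the sexes). Of 56899 entries, 4 with 2 duplicated names were left out. limma 3.58.1 (R 4.3.3, trend) tested genes with at least 10 normalized reads in 3 libraries, with Benjamini-Hochberg adjustment over all of them, and was tested on simulated data. Gene positions are from GENCODE M21. Correlations used numpy 2.4.6 and scipy 1.17.1.

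The members, the wider list and the marker lists were chosen with earlier results of these data known. Named were the 9 genes, wider-list genes called in a comparison or else the 2 with the smallest p, the 3 genes most like Cpt1a, Cpt1b, Ppara and the 6-enzyme mean, and fixed markers; 1 result under this rule is not reported here. Alternatives were limma-voom on recovered reads, trimmed mean of M-values, an offset of 10, no filter, an adjusted p limit of 0.05, 1 fit over 24 libraries, muscle or brown covariates, no muscle-rich libraries and leaving out each library, and, chosen after seeing the data, no renal-named libraries and no VDD HF females 2083 and 2121.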

Additional observations from a re-analysis of the deposited data

How the results depend on the processing

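The count of the 9 genes called changed in 3 of 16 comparisons. With an adjusted p limit of 0.05 the count was 5 between the diets of CTRL females, 4 for HF over LF males and 1 between the diets of VDD males. In HF over LF males, where it was 1, it was 2 with the skeletal muscle covariate, 0 with the brown or beige covariate and 0 without the 6 libraries named renal, and between 1 and 5 without a single library (5 without VDD LF male 2310, 2 without VDD HF male 2308). The share of all genes called under these settings is not given here, so the counts do not show a change particular to the 9. Between the diets of VDD males the count was also 1 with a single fit over 24 libraries. In the other 13 comparisons it stayed at 0 under every alternative that gave a value. Of 1093 alternative values for genes with an unadjusted p below 0.05, 5 changed sign, all with the brown or beige covariate: Acadm (-0.20) and Ppara (-0.094) in CTRL HF vs. VDD HF females, and Cpt1b (-0.10), Acadm (-0.24) and Ppara (-0.22) in the female interaction. The cause was not tested. Of 1846 for the other genes, 182 changed sign. Without muscle-rich libraries VDD LF vs. VDD HF males had 1 mouse each and no test. No paired analysis was possible because the groups hold different mice and no source used here ties a mouse to its litter. With 3 mice per group, a fold must be large to be called. Cpt1b is limited by low counts, 1 to 140 reads per library. These are uncertain because most of its exon bases are shared with Gm44502.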

Other observations

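Between the sexes, 4 of the 65 genes tested of the wider list were called higher and 2 lower in females over all 4 diet groups, where 7.27% of all genes were called, so that the share of the list called lay near that of all genes. Acox2, a peroxisomal oxidase of branched chains and bile acid precursors, was at 2.13 (SE 0.37, adjusted p = 0.000534), the thioesterase Acot1 at 1.20 (SE 0.28, adjusted p = 0.0047), the cytosolic carboxylase Acaca at 0.95 (SE 0.24, adjusted p = 0.00937) and Sirt3 at 0.61 (SE 0.10, adjusted p = 0.000344). Ucp3, the uncoupling protein of muscle and brown adipocytes, was lower in females at -0.93 (SE 0.14, adjusted p = 0.000118), as was the hormone gene Fgf21 at -1.32 (SE 0.33, adjusted p = 0.00856). Acox2 and Fgf21 were near the floor. Acox2 had means of 0.60 to 8.90 normalized reads in the male groups, and its VDD LF females spanned 11.2 to 181.7. Fgf21 had means of 2.10 to 10.8 in the female groups. The p-values are from limma over 18399 genes, and none of the 9 oxidation genes was among the calls.

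Other contrasts of the wider list gave 0 calls. In CTRL LF vs. CTRL HF males Acsl1 (-1.56, SE 0.28, adjusted p = 0.0335) and Pdk4 (-1.62, SE 0.30, adjusted p = 0.0385) had the smallest p, and in VDD LF vs. VDD HF males Acacb (-2.00, SE 0.17, adjusted p = 0.0105) and Hsd17b10 (-1.97, SE 0.25, adjusted p = 0.0183). The male interaction was led by Abcd2 (0.92, SE 0.32, adjusted p = 1) and Acacb (-0.86, SE 0.35, adjusted p = 1), and the female one by Acad10 (1.07, SE 0.23, adjusted p = 0.59) and Acacb (2.68, SE 0.62, adjusted p = 0.59). For HF over LF in females Acacb (-1.75, SE 0.31, adjusted p = 0.0405) and Slc27a1 (-1.20, SE 0.29, adjusted p = 0.0733) came first, and for VDD over CTRL females Eci1 (0.79, SE 0.15, adjusted p = 0.0504) and Pparg (0.63, SE 0.12, adjusted p = 0.0507). Hsd17b10 (0.92, SE 0.30, adjusted p = 0.364) and Ppargc1b (1.34, SE 0.56, adjusted p = 0.487) led the female minus male diet response.

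Among the 9 genes, the 15 pairs of the 6 enzymes Cpt2, Acadm, Acadl, Acadvl, Hadha and Hadh correlated over the 24 libraries with r between 0.843 and 0.960, and Cpt1a with the other 8 at r between -0.725 and -0.465. These are descriptions over libraries that share groups and other tissues. The genes most like Cpt1a were Pam (r = 0.952), which amidates peptide hormones, Prps2 (r = 0.930), of nucleotide synthesis, and Nucb2 (r = 0.916). Those most like Cpt1b were Cox7a1 (r = 0.879) and Cox8b (r = 0.861), both on the brown or beige list, and Ogdh (r = 0.857), of the citric acid cycle. VDD LF male 2310 had the highest skeletal muscle level, and its brown or beige genes summed to 2748 normalized reads. Only 4 of those 8 genes reached 10 normalized reads there, with Ucp1 at 2.34 and Cidea at 195. A place on the list thus does not show the cell type, and the part of muscle RNA was not tested.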
